A study of Mus musculus with 6 samples.

Results

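The growth hormone receptor and STAT5 axis of the mouse liver was followed through 10 genes, chosen by gene symbol from the 18444 genes listed in at least 1 of 6 liver libraries. These were the receptor Ghr, the transducers Stat5a and Stat5b, the feedback inhibitors Cish and Socs2, the circulating products Igf1 and Igfals, and the transcription factors Bcl6, Onecut1 and Cux2. Membership followed the gene symbol alone, with no threshold on a measured value, and all 10 had reads in all 6 libraries.

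Liver RNA of male mice, C57BL/6 by the labels and C57BL/6J by the study's methods, was sequenced in 2 models with 1 library per condition. The diet model held a chow control (SD), a high-fat diet given for 16 weeks (HFD) and the same diet with JT003, a peptide agonist of both adiponectin receptors, given for 4 weeks at 500 μg/kg (HFD plus JT003). The CCl4 model held injections of corn oil, of the liver toxin CCl4 every 3 days for 6 weeks, and of CCl4 with JT003 for 3 weeks at 500 μg/kg (CCl4 plus JT003). The mice were 6 to 8 weeks old by the labels and by the study's methods, and no genotype other than the strain is given. With a diet of 16 weeks this cannot be the age at sampling in the diet model. The age at sampling is not given. The HFD library carries the label NASH, and the study describes the sequenced livers of this model as those of mice on SD, HFD or HFD with JT003. The number of mice behind each library is not given in the sources used here.

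The libraries held 19374236 to 20184557 counts and listed 16083 to 16738 genes. Of the 15 hepatocyte markers looked for, 14 had a row and all 14 had reads in every library, with summed FPKM from 58611 to 76238. Reads of 4 Y-linked genes were present in every library (134 to 1187 counts a gene) and Xist had 3 to 18 counts, as the labelled sex would have. The corn oil library stood apart in its macrophage markers, whose summed FPKM was 72.1 there and 235 to 363 in the other libraries. With 1 library per condition there was no replicate check. Each test compares a pair of libraries and not the conditions, and each interval covers counting error only. In bulk liver, fewer cells of a type and less RNA per cell cannot be told apart.

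Growth hormone binds its receptor on hepatocytes, and the kinase JAK2 then phosphorylates STAT5, which enters the nucleus and switches on target genes. Among these are the feedback inhibitors Cish and Socs2, and Igf1 and Igfals, whose proteins circulate together in a complex with an IGF-binding protein. BCL6 is a repressor that competes with STAT5 for similar DNA sites, and the male pattern of pulsed growth hormone release, against the more continuous female pattern, sets the sex-biased expression of many liver genes.

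A gene was called between 2 libraries when its adjusted p-value in an exact binomial test on reads was under 0.001 and its log2 ratio was at least 1 in size. Between SD and HFD, 2 of the 10 genes were called higher (Ghr and Bcl6) and none lower, where 5.38% of all genes tested were called. Between HFD and HFD plus JT003, 1 was called, Bcl6, which was lower, where 1.63% of all genes were called. Between corn oil and CCl4, Bcl6 was called higher and Cish, Socs2 and Onecut1 lower, 4 of 10 where 7.18% of all genes were called. With reads scaled to library totals, Socs2 fell out of these calls. Between CCl4 and CCl4 plus JT003, 6 of 10 were called where 4.42% of all genes were called, Cish, Socs2, Onecut1 and Cux2 higher and Bcl6 and Stat5a lower. Here Stat5a was lost under scaling to library totals. The median log2 ratio of the 10 genes was 0.43, 0.14, -0.61 and 0.84 in these 4 comparisons. The median of all genes tested lay within 0.01 of 0 in each, where the scaling between libraries tends to place it. With reads scaled to library totals, the median of all genes was 0.12, -0.0008, 0.23 and 0.06.

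**Figure D1:**
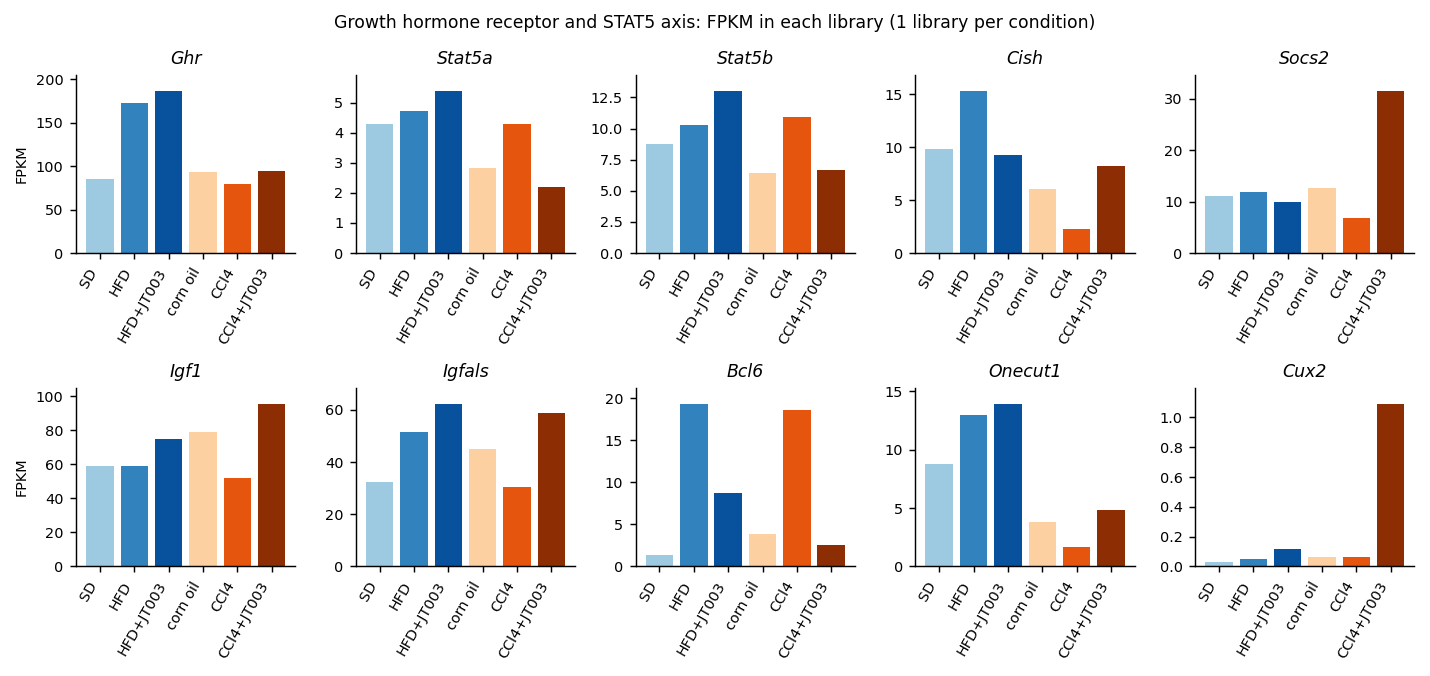
FPKM (y axis, linear from 0) of the 10 genes in each of the 6 libraries (x axis), 1 bar per library with no replicates and a y axis of its own for each gene. Bcl6 is high in HFD and CCl4, Cish and Onecut1 are lowest in CCl4, and Cux2 is above 1 FPKM only in CCl4 plus JT003.

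**Figure D2:**
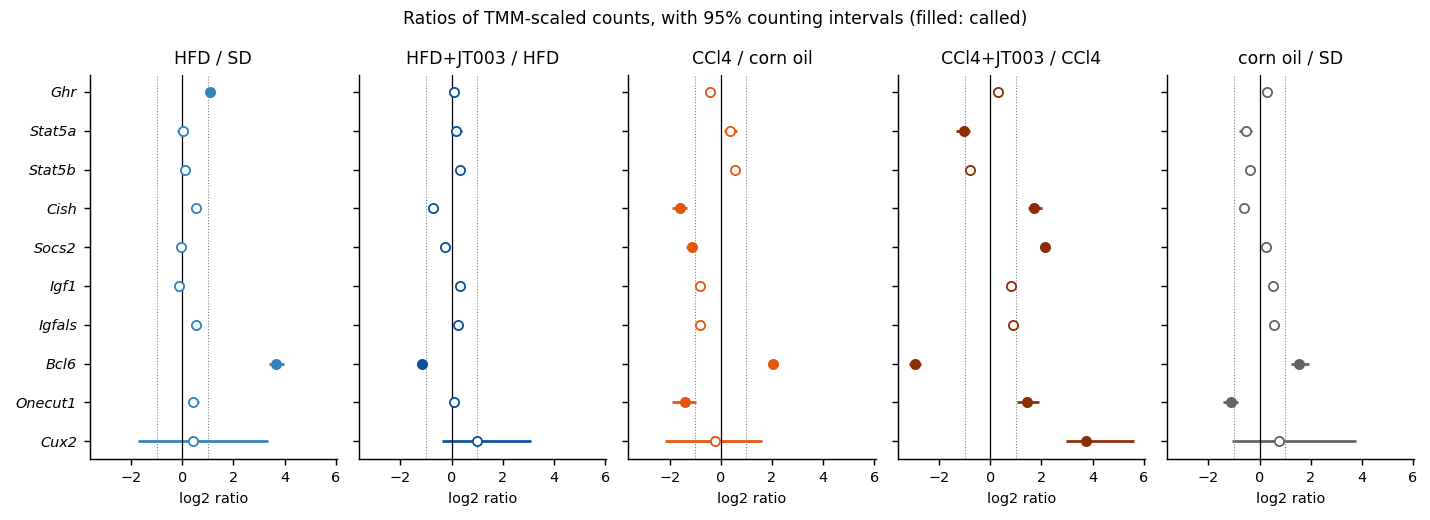
Log2 ratio of TMM-scaled counts (x axis) of each gene (y axis) in 4 comparisons and between the 2 control libraries. Lines are 95% Clopper-Pearson intervals of counting error, filled points were called, and dotted lines mark log2 ratios of 1 and -1. Bcl6 is called in all 5 panels.

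Ghr, which encodes the receptor, was the most abundant of the 10 per length in 5 of the 6 libraries. Its FPKM was 85.7 in SD, 172 in HFD, 187 in HFD plus JT003, 93.4 in corn oil, 79.7 with CCl4 and 94.5 with CCl4 plus JT003. Both HFD libraries stood above the other 4, which lay close together. Ghr rose 2.14-fold from SD to HFD (log2 ratio 1.10, 95% interval 1.05 to 1.15). HFD plus JT003 differed from HFD by a log2 ratio of 0.11 (0.07 to 0.15), under the threshold, and remained 2.31-fold above SD. Between HFD plus JT003 and SD, 2 of the 10 genes were called (Ghr and Bcl6), where 5.93% of all genes were called. CCl4 against corn oil gave -0.42 (-0.48 to -0.36), beside 0.29 for corn oil against SD. Of the 10 genes, Ghr showed the widest spread in the transcript length implied by its counts and FPKM, from 2496 bases in SD to 2913 in CCl4 plus JT003, a ratio of 1.17, against at most 1.04 for the other 9. The ratio of deposited FPKM between HFD and SD was accordingly lower, 1.01 on the log2 scale.

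Stat5a and Stat5b, the paired transcription factors that carry the signal, lie next to each other on chromosome 11 and are near-identical over long stretches. Their counts were split by the authors' estimation and their individual values are uncertain. Stat5a stood at 4.28 FPKM in SD, 4.71 in HFD, 5.39 in HFD plus JT003, 2.84 in corn oil, 4.28 with CCl4 and 2.19 with CCl4 plus JT003. Stat5b was higher per length throughout, at 8.75, 10.3, 13.0, 6.44, 10.9 and 6.70 FPKM in the same order. Both were highest in HFD plus JT003 and low in corn oil and CCl4 plus JT003. Stat5a fell 2.06-fold from CCl4 to CCl4 plus JT003 (log2 ratio -1.04, -1.33 to -0.77), and Stat5b in that comparison gave -0.78 (-0.93 to -0.64), which did not pass the threshold. No other comparison within a model called either gene, and their log2 ratios there ran from -0.67 to 0.54.

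Cish, a SOCS-family inhibitor transcribed in response to STAT5, stood at 9.81 FPKM in SD, 15.3 in HFD, 9.29 in HFD plus JT003, 6.05 in corn oil, 2.32 with CCl4 and 8.19 with CCl4 plus JT003. The CCl4 library was the lowest of the 6 and HFD the highest. Cish fell 3.05-fold from corn oil to CCl4 (log2 ratio -1.61, -1.91 to -1.34) and was 3.32-fold higher in CCl4 plus JT003 than in CCl4 (1.73, 1.47 to 2.02). Against corn oil, CCl4 plus JT003 gave 0.12 (-0.08 to 0.32). In the diet model no ratio passed the threshold, with 0.52 (0.37 to 0.67) from SD to HFD and -0.74 (-0.90 to -0.59) from HFD to HFD plus JT003.

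Socs2, a second inhibitor that limits receptor signaling and body growth, stood at 11.1, 11.9 and 9.99 FPKM in SD, HFD and HFD plus JT003, and at 12.6, 6.79 and 31.5 FPKM in corn oil, CCl4 and CCl4 plus JT003. Its 3 diet libraries were close together, and CCl4 plus JT003 stood above all the others. Socs2 fell 2.20-fold from corn oil to CCl4 (log2 ratio -1.14, -1.35 to -0.93) and was 4.40-fold higher in CCl4 plus JT003 than in CCl4 (2.14, 1.96 to 2.33). Against corn oil, CCl4 plus JT003 was higher by a log2 ratio of 1.00 (0.86 to 1.15), a value at the threshold that was lost under TMM factors over all 6 libraries and under DESeq2 size factors. Between those 2 libraries, 2 of the 10 genes were called (Socs2 and Cux2), where 4.95% of all genes were called.

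Igf1, the growth factor that the liver secretes under growth hormone, stood at 58.8, 59.2 and 74.9 FPKM in SD, HFD and HFD plus JT003, and at 79.0, 52.2 and 95.5 FPKM in corn oil, CCl4 and CCl4 plus JT003. Igfals, whose protein stabilises IGF1 in the circulation, stood at 32.5, 51.6 and 62.3 FPKM in the diet model and at 45.2, 30.5 and 58.7 FPKM in the CCl4 model. Both were lowest in CCl4. Neither was called in any comparison of the 6 libraries. From corn oil to CCl4 the log2 ratio was -0.83 (-0.88 to -0.79) for Igf1 and -0.80 (-0.91 to -0.70) for Igfals, and from CCl4 to CCl4 plus JT003 it was 0.80 (0.76 to 0.84) and 0.88 (0.78 to 0.98). The control libraries differed from each other by 0.52 for Igf1 and 0.57 for Igfals. Igfals in HFD against SD gave 0.54 (0.45 to 0.64).

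Bcl6, the repressor, had the widest FPKM range of the 10 after Cux2. Its FPKM was 1.39 in SD, 19.3 in HFD, 8.78 in HFD plus JT003, 3.85 in corn oil, 18.6 with CCl4 and 2.55 with CCl4 plus JT003. HFD and CCl4 stood far above both controls. Bcl6 rose 12.6-fold from SD to HFD (94 to 1281 counts, log2 ratio 3.65, 3.374 to 3.995), and 0.34% of genes with at least 100 counts had as large a ratio. It fell 2.22-fold from HFD to HFD plus JT003 (-1.15, -1.30 to -1.01), where 1.30% of such genes moved as far. It rose 4.07-fold from corn oil to CCl4 (2.03, 1.84 to 2.23) and fell 7.57-fold from CCl4 to CCl4 plus JT003 (-2.92, -3.18 to -2.70). In HFD plus JT003 it remained 5.66-fold above SD, and in CCl4 plus JT003 it gave -0.89 (-1.19 to -0.61) against corn oil. The control libraries themselves differed 2.92-fold (1.55, 1.22 to 1.93), more than HFD plus JT003 did from HFD. Mitosis genes, at a summed 137 FPKM in CCl4 and 10.1 in CCl4 plus JT003, moved with Bcl6 in the CCl4 model but stood at 3.02 FPKM in HFD, where Bcl6 was highest. Their part in the result was not tested.

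Onecut1 encodes the hepatocyte factor HNF6, which growth hormone induces and which helps to activate sex-biased genes. It stood at 8.80, 13.0 and 13.9 FPKM in SD, HFD and HFD plus JT003, and at 3.80, 1.66 and 4.80 FPKM in corn oil, CCl4 and CCl4 plus JT003. All 3 CCl4-model libraries lay below all 3 diet libraries. Onecut1 fell 2.64-fold from corn oil to CCl4 (log2 ratio -1.40, -1.90 to -0.99) and was 2.71-fold higher in CCl4 plus JT003 than in CCl4 (1.44, 1.04 to 1.91). Corn oil was itself 2.15-fold below SD. Between these 2 controls 2 of the 10 genes were called (Bcl6 and Onecut1), where 5.44% of all genes were called. The 8 endothelial markers had a summed FPKM of 76.0, 81.3, 96.3, 48.7, 30.8 and 50.1 in the order of the 6 libraries, also lowest in CCl4. Of these markers, 3 were called lower from corn oil to CCl4 and 1 higher with JT003. All 8 had reads in every library, and their part in the Onecut1 values was not tested.

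Cux2, a repressor that female mouse livers express and male livers nearly lack, had 3, 5 and 12 counts in SD, HFD and HFD plus JT003, and 6, 6 and 106 counts in corn oil, CCl4 and CCl4 plus JT003. In FPKM it was 0.03 to 0.12 in the first 5 of these libraries and 1.09 in CCl4 plus JT003, a level above 36.3% of the genes listed there. The value rose 13.4-fold from CCl4 (log2 ratio 3.75, 2.96 to 5.61) and 11.3-fold from corn oil (3.50, 2.67 to 5.32). At 3 to 12 counts no difference among the other 5 libraries was detectable.

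The letters TTCNNNGAA, the core shared by STAT5 and BCL6 sites and read alike on both strands, were searched in RefSeq promoter windows (GRCm38.p6, 250 bases before a transcription start to 50 after it). Windows were at hand for 9 of the 10 genes, Socs2 being the exception. Of all 32851 windows 8.30% held the letters, and 0.457% held them more than once. They were found in 5 of the 16 windows of the axis, belonging to Cish, Igfals and Bcl6, and in no window of Ghr, Stat5a, Stat5b, Igf1, Onecut1 or Cux2. These 3 genes had 1 to 3 windows each, and 15.4% of all genes with more than 1 window held the letters. The stretches are shown because Cish and Bcl6 moved in opposite directions in the CCl4 model, with the matches in capitals, 5′ to 3′ on the strand of the gene. Cish is shown at chr9:107296649-107296678 (+), where the matches begin 1 and 12 bases into the transcript. Igfals is shown at chr17:24877598-24877627 (+) and chr17:24878163-24878192 (+), where the matches begin 236 and 58 bases upstream of the transcription starts of its first and second window. Bcl6 is shown at chr16:23988951-23988980 (-), 118 bases upstream of its distal start, and then as the whole 250 bases upstream of another start at chr16:23981284-23981533 (-), with 3 matches, a number that 0.033% of all windows reached.
Cish: ccgcccagttTTCCTGGAAagTTCTTGGAA
Igfals, first window: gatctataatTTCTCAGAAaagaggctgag
Igfals, second window: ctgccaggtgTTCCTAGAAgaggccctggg
Bcl6, distal start: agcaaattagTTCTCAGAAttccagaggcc
Bcl6, other start: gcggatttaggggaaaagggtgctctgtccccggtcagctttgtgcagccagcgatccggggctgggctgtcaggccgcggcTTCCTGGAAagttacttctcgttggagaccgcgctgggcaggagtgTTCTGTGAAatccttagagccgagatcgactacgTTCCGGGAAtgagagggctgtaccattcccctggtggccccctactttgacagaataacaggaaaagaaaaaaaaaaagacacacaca
A match describes the letters of the reference and not a bound site, and a window without a match says only that the letters were not in it.

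A further view of CCl4 came from a CCl4 column in the deposited comparison of CCl4 and CCl4 plus JT003, whose counts sum to 2.97 times the CCl4 library. It appears to add the CCl4 library to others, which the table does not name. The remainder after subtracting the CCl4 library stood for these other libraries, by inference from the values. Scaled to the total of each library, as counts per 1000000 counts (CPM), Bcl6 was at 13.0 in corn oil, 62.5 in the CCl4 library, 44.0 in the remainder and 8.57 in CCl4 plus JT003. Cish was at 18.4, 7.05, 4.27 and 24.7, and Socs2 at 27.5, 14.6, 5.71 and 67.8. The remainder lay on the same side of corn oil and of CCl4 plus JT003 as the CCl4 library did for these 3 genes, for Igfals and for Onecut1. Put in place of the CCl4 library, it called 5 of 10 genes against corn oil, where 9.54% of all genes were called. Bcl6 was higher (log2 ratio 1.44, 1.25 to 1.64), and lower were Socs2 (-2.57, -2.82 to -2.36), Cish (-2.41, -2.70 to -2.16), Onecut1 (-1.80) and Igfals (-1.44, -1.54 to -1.35). CCl4 plus JT003 against the remainder called 6 of 10, where 4.55% of all genes were called. These were Socs2 (3.57), Cux2 (3.82), Cish (2.53), Onecut1 (1.83) and Igfals (1.51) higher and Bcl6 (-2.34) lower, while Stat5a at -0.95 was no longer called. Between the remainder and the CCl4 library itself, scaled to total reads, Socs2 alone was called (-1.35, -1.61 to -1.10), where 1.84% of all genes were called, and Cish gave -0.71 and Bcl6 -0.50.

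**Figure D3:**
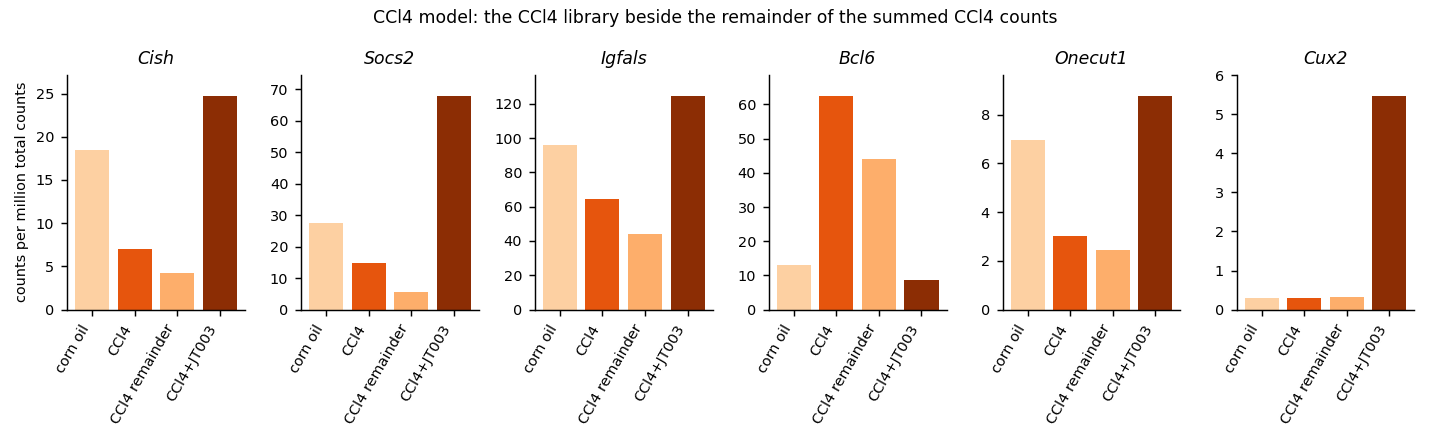
CPM, counts scaled to the total of each library (y axis, linear from 0, its own scale for each gene) of 6 genes in corn oil, the CCl4 library, the remainder of the summed CCl4 counts and CCl4 plus JT003 (x axis). Bars have no error because each stands for a single library or sum. For Cish, Socs2, Igfals and Onecut1 both CCl4 bars lie under corn oil and under CCl4 plus JT003, and for Bcl6 both lie above.

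Of 22 other genes of growth hormone receptor signaling (kinase, phosphatases, SOCS proteins and adaptors), 1 was called lower from SD to HFD, none between HFD and HFD plus JT003, 1 higher and 1 lower from corn oil to CCl4, and 1 higher from CCl4 to CCl4 plus JT003. The median log2 ratios were 0.17, -0.07, 0.21 and -0.01. The gene lower in HFD was Irs2, an insulin receptor substrate (580 to 226 counts, log2 ratio -1.44, -1.68 to -1.23), which was lower still in corn oil, at 128 counts. Socs3, an inhibitor induced by cytokines, was lower in CCl4 than in corn oil (425 to 242 counts, -1.09, -1.33 to -0.87) and higher in CCl4 plus JT003 (537 counts, 1.13, 0.92 to 1.36). Jak2, the receptor's kinase, had 1.42 to 3.89 FPKM and was called in none of the 4 comparisons.

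The IGF system, 16 further genes, held 2 called lower from SD to HFD, 4 higher from HFD to HFD plus JT003, 1 lower from corn oil to CCl4 and none between CCl4 and CCl4 plus JT003, with median log2 ratios of 0.03, -0.11, -0.10 and 0.08. Between HFD and HFD plus JT003, 15 of the 16 had reads to test. Over all genes 5.38%, 1.63%, 7.18% and 4.42% were called in the 4 comparisons, which are also the shares beside the signaling genes above and the transcription factors below. The binding protein Igfbp1, which insulin represses, was at 174, 19.9 and 49.4 FPKM in SD, HFD and HFD plus JT003, and at 76.8, 122 and 72.7 FPKM in corn oil, CCl4 and CCl4 plus JT003. It fell by 3.24 on the log2 scale from SD to HFD and was 1.29 higher in HFD plus JT003 than in HFD. Igfbp2 fell by 2.04 from SD to HFD. Igfbp5 rose by 2.02 from HFD to HFD plus JT003 and fell by 1.69 from corn oil to CCl4, and corn oil was itself 3.39 above SD. Igf1r, the receptor of IGF1, stayed at 0.22 to 0.47 FPKM.

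Of 20 other liver transcription factors, 1 was called higher from SD to HFD (Trim24, log2 ratio 1.22), 1 lower from corn oil to CCl4 (Tox, -2.58) and none between CCl4 and CCl4 plus JT003. Hnf4a, a central hepatocyte factor, stayed between 145 and 203 FPKM. The median log2 ratio of the list was 0.11, -0.07 and -0.04 in these 3 comparisons.

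Sex-biased liver genes, many of which depend on the pattern of growth hormone, were listed as possible outputs of the axis. The libraries measure neither growth hormone nor STAT5 activity, and the part of the axis in these genes' values was not tested. Of 20 male-biased genes, 17 were called lower from corn oil to CCl4 and none higher, where 2.41% of all genes were called lower. Their median log2 ratio was -3.24. From CCl4 to CCl4 plus JT003, 19 could be tested and 3 were called higher and 1 lower, with a median of 0.15. CCl4 plus JT003 against corn oil called all 20 lower (median -2.59), where 1.72% of all genes were, and with reads scaled to library totals 15 of 20. All 20 had a negative ratio to corn oil in both CCl4 libraries under each of the 4 scalings. Between CCl4 plus JT003 and corn oil, Cish gave a log2 ratio of 0.12 and Igf1 of -0.03, and neither was called. In that comparison Socs2 (1.00) and Cux2 (3.50) were called higher. Bcl6 gave -0.89 and Stat5a -0.67, and Ghr, Stat5b, Igfals and Onecut1 ran from -0.24 to 0.07, none of them called. Mup7, a major urinary protein, had 153582 counts in the corn oil library, 370 with CCl4 alone and 479 with JT003 added. Hsd3b5, a steroid-metabolising enzyme, had 454, 15 and 17 counts. Among the genes called with JT003, Mup1 rose from 45 counts in CCl4 to 138 (log2 ratio 1.56, 1.11 to 2.13) and Cyp4a12b, a fatty acid hydroxylase, from 512 to 1145 (1.15, 1.00 to 1.30). Elovl3, a fatty acid elongase, fell from 731 to 99 counts (-2.87, -3.21 to -2.59). Moxd1 had 383 counts in corn oil and 0 in both CCl4 libraries, at least 157-fold lower in CCl4 plus JT003 against a limit of 3 counts per library. Mup and Cyp genes are families of near-identical copies, and their single values are uncertain.

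In the diet model the male-biased list was mixed, with 3 called higher and 4 lower from SD to HFD (median -0.07) and 1 higher and 2 lower from HFD to HFD plus JT003 (median 0.01). Hsd3b5 rose from 186 to 3521 counts with HFD (log2 ratio 4.14), and Moxd1 fell from 950 to 14 (-5.98) and stood at 339 in HFD plus JT003. Of 22 female-biased genes, 2 were called higher and 4 lower from SD to HFD, 3 higher from HFD to HFD plus JT003, 6 higher and 4 lower from corn oil to CCl4, and 3 higher and 1 lower from CCl4 to CCl4 plus JT003. Over all genes 5.38%, 1.63%, 7.18% and 4.42% were called in these comparisons. Of the 22 genes, 21, 19, 21 and 22 had reads to test, and their medians were 0.29, 0.66, 0.30 and -0.22. Cyp2b9, a female-biased cytochrome, had 0 counts in SD and 856 in HFD, at least 268-fold higher, and Cyp2a4 had 0 counts in corn oil, 943 with CCl4 and 231 with CCl4 plus JT003. Other genes of the list fell. Cyp17a1 had 786 counts in SD and 101 in HFD. From corn oil to CCl4, Cyp2c40 fell from 203 to 18 counts and Cyp2c69 from 168 to 19. In CCl4 plus JT003 against corn oil, 6 of the 21 genes tested were called higher and 2 lower, and 4.95% of all genes were called. Under TMM over all 6 libraries and under DESeq2 size factors, 5 were called higher.

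**Figure D4:**
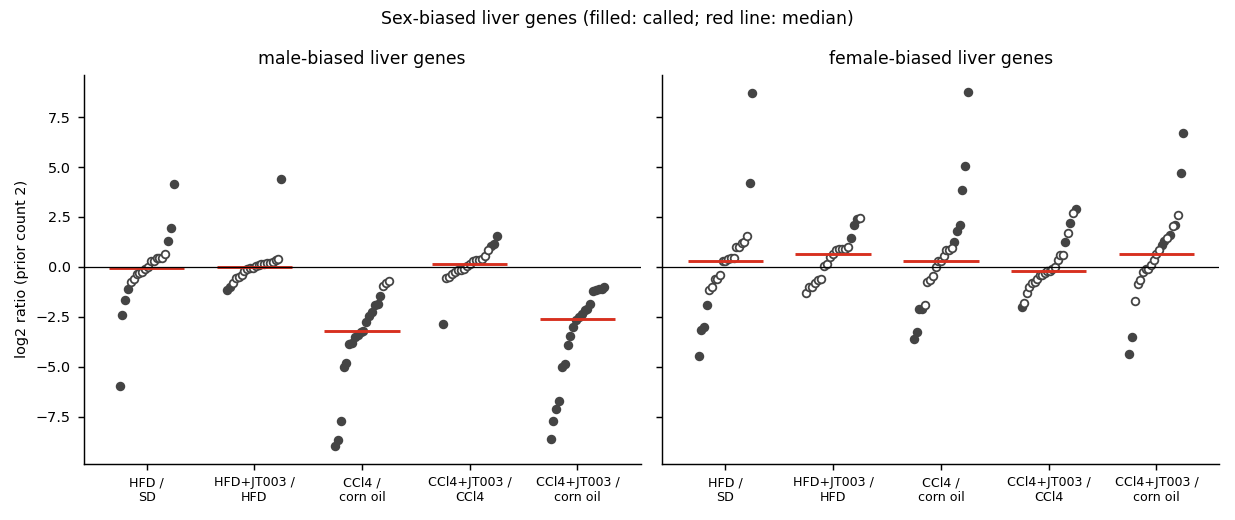
Log2 ratio (y axis, prior count 2) of 20 male-biased and 22 female-biased liver genes in 5 comparisons (x axis), 1 point per gene with reads, filled where called, red line at the median. The male-biased points all lie below 0 in the 2 comparisons with corn oil, with medians of -3.24 and -2.59. Between CCl4 and CCl4 plus JT003 they run from -2.87 to 1.56, with a median of 0.15.

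The genes whose profile over the 6 libraries lay nearest to a member were found among 9376 genes by the root mean square difference of centred log2 CPM. For Ghr these were Dgat2, an enzyme of triglyceride synthesis (difference 0.09), Slc22a30 and Colec12. For Igfals they were Cyp2d13 (0.07), Rb1cc1 and Zkscan3, and for Socs2 Plk3 (0.16), Btbd19 and Vmn1r65. Onecut1 lay nearest to Adgrl4 (0.16), Colec10 and Ptprb, of which Adgrl4 and Ptprb are endothelial genes. Stat5a lay nearest to Ugt1a6a (0.09), Zhx3 and Prpf8, and Stat5b to Fech (0.11), Tbc1d9b and Pzp. The nearest genes to Bcl6 were Aqp8 (0.68), Rgs16 and Lgals1, and those to Cux2 were Cyp2j9 (0.76), Hamp and Zpr1. The difference is not scaled to the spread of a profile, so wide profiles tend to give larger values. Bcl6 and Cux2 had the widest log2 ranges of the members (3.65 and 4.25). Igf1 varied too little over the libraries for this search. With 6 libraries that share scaling factors, these distances are a description.

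Markers of other cells moved with the CCl4 comparisons in which the members were called. From corn oil to CCl4, 9 of 12 macrophage, 3 of 10 myofibroblast, 4 of 6 bile duct and 10 of 10 mitosis genes were called higher, and from CCl4 to CCl4 plus JT003 10 of 10 mitosis, 4 of 10 myofibroblast and 1 of 6 bile duct genes were called lower. In the latter comparison 2 of 12 macrophage markers were called higher and none lower, Marco from 161 to 1252 counts and Timd4 from 18 to 56, chosen here after their values were seen, and 1 of 8 endothelial markers was called higher. Among the uncalled macrophage markers, Cd68 fell from 295 to 196 counts (log2 ratio -0.60, -0.87 to -0.34). Adgre1 fell from 191 to 151 (-0.35, -0.67 to -0.03), and the remaining uncalled ones had ratios above 0. Between corn oil and CCl4 plus JT003, where Socs2 and Cux2 were called, 10 of 12 macrophage, 4 of 10 mitosis, 3 of 10 myofibroblast and 2 of 6 bile duct genes were called higher, and 1 myofibroblast and 2 hepatocyte genes lower. Of the 14 hepatocyte markers, 3 were called lower from corn oil to CCl4 and none between CCl4 and CCl4 plus JT003. All 12 macrophage markers were called lower in corn oil than in SD. None of the 9 lymphocyte or 6 neutrophil markers was called in these 3 comparisons. From SD to HFD, 5 of 10 myofibroblast genes were called higher, and 4 were called lower with JT003. The part of these cells in the members' values was not tested.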

How the data were processed

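RNA-seq of mouse liver gave 6 libraries, 1 per condition. For each library the authors deposited 2 values per gene, an expected count and FPKM, and the submitters' processing notes name HISAT, Bowtie2 and RSEM and the build mm9, without roles or versions. Expected counts are the authors' unnormalized estimates, of which 69.9% to 70.9% were whole, so reads shared by similar genes were split. FPKM is the deposited count scaled to transcript length and library size. The authors' 4 comparison tables hold fold changes and p-values, which were not used, and 7 further expression columns in them were not used here. The summed CCl4 count column served as an alternative.

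Expected counts were rounded and scaled by TMM factors over all 3 libraries of a model, or over both controls, with edgeR 4.0.16 (R 4.3.3). Genes with at least 1 read in either library entered an exact conditional binomial test, two-sided (scipy 1.17.1, pandas 2.3.3, numpy 2.4.6, Python 3.11.15), with Benjamini-Hochberg adjustment over all of them. Calls required an adjusted p under 0.001 and a log2 ratio, with a prior count of 2, of at least 1 in size. Intervals are 95% Clopper-Pearson. Each library held at least 19374236 counts, and a gene at 0 was limited by 3 counts. The test was checked on simulated counts with counting error only, which held no variation between mice. Figures used matplotlib 3.10.9, and DESeq2 1.42.0 gave alternative size factors.

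All 10 members were named. From each pathway list, genes were named from up to 2 called higher and up to 2 called lower per comparison, with the largest log2 ratios and at least 100 counts in the higher library, and Jak2, Igf1r and Hnf4a were named after their values were seen. For members whose log2 level ranged over at least 1, the 3 nearest profiles were named, except for Cish, and a few results of these rules are not reported here. The members and lists were chosen with earlier results of these data known. Promoter windows are RefSeq's on GRCm38.p6, matched by gene identifier, and no coordinates were carried over from mm9. The alternatives were other scalings, filters, thresholds and prior counts, edgeR's exact test at an assumed variation, FPKM ratios, and the summed CCl4 counts. The check of the labelled sex and the comparison of the remainder with the CCl4 library were added after seeing the data.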

Additional observations from a re-analysis of the deposited data

Results flagged for a closer look

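For 6 members the diet and CCl4 models gave log2 ratios that differed in sign and lay at least 1 apart. In each of these, both 95% intervals kept to the sign of their ratio. Stat5a with JT003 (0.18 and -1.04) was not flagged, as its diet interval ran from -0.03 to 0.39. Each model had 1 library per condition, and none of the differences was tested. For the model against its control, the diet ratio less the CCl4 ratio was 2.13 for Cish (0.52 in the diet model and -1.61 in the CCl4 model). It was 1.84 for Onecut1 (0.44 and -1.40), 1.52 for Ghr (1.10 and -0.42) and 1.35 for Igfals (0.54 and -0.80). For JT003 against the model it was -2.47 for Cish (-0.74 and 1.73), -2.41 for Socs2 (-0.27 and 2.14) and 1.11 for Stat5b (0.33 and -0.78). The models also differed in length, 16 weeks of diet against 6 weeks of injections, and so probably in age at sampling. They differed too in length of JT003 treatment, 4 against 3 weeks, and in their control libraries. Model, age and treatment time therefore cannot be told apart, nor can model and age between the corn oil and SD libraries.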

How the results depend on the processing

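No called ratio of a member changed sign under any alternative run. Of 942 alternative values of single members, 790 stayed on their side of the threshold or within their interval, 63 moved outside the interval without a call, 44 became calls and 45 lost one. Signs changed in 16, all of uncalled ratios of at most 0.24 in size on the log2 scale. Without a fold threshold the members called numbered 6 (HFD against SD), 6 (HFD plus JT003 against HFD), 8 (CCl4 against corn oil), 10 (CCl4 plus JT003 against CCl4), 6 (HFD plus JT003 against SD), 5 (CCl4 plus JT003 against corn oil) and 8 (corn oil against SD). In the same order, 3967 of 16973, 2422 of 17090, 4492 of 17234 and 4180 of 17393 genes tested were called. The last comparisons called 4544 of 17012, 3548 of 17338 and 4898 of 17018. With a 1.5-fold threshold the members called were 2 for HFD plus JT003 against HFD and 4 for CCl4 plus JT003 against corn oil. That threshold also added Igf1 and Igfals for CCl4 against corn oil, and Stat5b, Igf1 and Igfals for CCl4 plus JT003 against CCl4. Igfals was added for HFD plus JT003 against SD, and Cish for corn oil against SD. In the order named, it called 748 of 17090, 1641 of 17338, 2398 of 17234, 1849 of 17393, 2261 of 17012 and 2562 of 17018 genes tested. When a coefficient of variation between mice of 0.2 was assumed in edgeR's exact test, the same 7 comparisons gave 1, 0, 1, 3, 1, 1 and 0, the calls left being Bcl6 in 4 of them, with Socs2 and Cux2 in CCl4 plus JT003 against CCl4 and Cux2 against corn oil. Over all genes that setting called 179, 19, 346, 165, 203, 138 and 107. At an assumed 0.4 all 7 gave 0 members, and 0 to 59 of all genes were called. FPKM ratios with 1 added gave 1 for HFD against SD, 2 for CCl4 against corn oil and 1 for CCl4 plus JT003 against corn oil. In CCl4 plus JT003 against CCl4 they lost the calls of Stat5a and Cux2. Over all genes these ratios called 631, 850, 593 and 496, in the order named. TMM over all 6 libraries and DESeq2 size factors each gave 1 for CCl4 plus JT003 against corn oil, Socs2 being lost. Over all genes these scalings called 838 and 848. Scaling to total reads moved the median of all genes most in CCl4 plus JT003 against corn oil, from 0.03 to 0.32. No paired analysis was possible because each condition has 1 library and no replicate numbers are shared beyond it, and no library could be left out in turn. Depth limited Cux2, at 3 to 12 counts in 5 libraries.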
